A study of Mus musculus with 6 samples.

Results

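Long intergenic noncoding RNAs (lincRNAs) expressed in the mouse vestibular epithelium were examined across 3 Control and 3 IDPN libraries. The 93 lincRNAs were chosen by their measured counts, as rows of the gene table annotated as lincRNA with a raw count of at least 50 in each of the 6 libraries. They were 93 of the 5082 lincRNA rows and of 52636 rows in all. RNA-seq had been performed on young adult male 129S1/SvImJ mice that drank either plain water (Control) or water with 30 mM 3,3'-iminodipropionitrile (IDPN) for 8 weeks, a compound that damages the sensory hair cells (HC) of the inner ear. Each library came from 1 animal, whose 2 utricles and 6 cristae were combined, so HC, supporting cells, nerve endings and underlying tissue were sampled together. Because the rule asked for 50 counts in every library, it left out any lincRNA that was silent in 1 group, and the level of a lincRNA is therefore given below as a description.

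LincRNAs are transcripts longer than small RNAs that lie between protein-coding genes and carry no recognised open reading frame. Some act in the nucleus, where Neat1 is the scaffold of the paraspeckle and Malat1 is a resident of nuclear speckles, some act in the cytoplasm, where Norad binds Pumilio proteins, and some are known chiefly as the host transcripts of microRNAs or small nucleolar RNAs. Many others have a sequence and a symbol but no assigned function, and lincRNAs as a class are less abundant and more restricted to particular cell types than messenger RNAs.

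The libraries held 40474847 to 43566332 estimated counts each. The summed normalized count of 14 HC markers was 813100 to 1069000 in Control and 587100 to 790000 in IDPN, with 9 of the 14 called down and none at 0, so the labelled tissue was present in every library. In such bulk samples, fewer cells of a type and less RNA per cell cannot be told apart. The sums of 8 macrophage markers overlapped between groups (2099 to 2953 in Control, 2519 to 3721 in IDPN). DESeq2 and edgeR called 0 of the 8, but 3 had an unadjusted p under 0.05 in each, and their median log2-Fold_Change was 0.525. The summed count of 8 interferon-response genes was 2444 to 3154 in Control and 5623, 12740 and 30270 in IDPN 1, 2 and 3. IDPN 2 stood apart in the summed count of 8 stress genes, at 276800 against 3420 to 4363 in the other 5 libraries, with Egr1 and Fos, immediate early genes, making up most of it. The Control mice carry title codes with a stem absent from the codes of the IDPN mice, and a difference that goes with those codes cannot be told apart from the exposure.

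Of the 93 lincRNAs, 5 were upregulated and 3 were downregulated in IDPN, by DESeq2 with a Benjamini-Hochberg adjusted p (Padj) under 0.05 over all genes tested and a fold change above 1.5. This was 5.38% of them up and 3.23% down. Over all 17650 genes with an adjusted p, DESeq2 called 2.32% up and 3.42% down, and over protein-coding genes with 50 counts in every library it called 2.25% up and 3.96% down. The median log2-Fold_Change was -0.015 over the 93 lincRNAs and 0.015 over all genes tested. LincRNAs above and below 0 numbered 45 and 48 (70 and 23 with size factors set by total count, which raise all genes), and 77 lay within 0.5 of it. The edgeR quasi-likelihood test called 4 up and 3 down, against 1.02% up and 2.19% down over all genes it tested. With size factors set by total count, DESeq2 called 7 up and 1 down, where it called 3.64% and 1.28% of all genes. All 3 IDPN libraries lay above all 3 Control libraries for 10 lincRNAs and below them for 11, where 11.1% and 11.4% of all genes did so. Most expressed lincRNAs were not called. Of the lincRNAs with a known role that are named below, DESeq2 called none at its main settings, whereas edgeR and the total-count size factors called Neat1.

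The 3 downregulated lincRNAs were A330048O09Rik, 5330413P13Rik and Gm1322. A330048O09Rik is a gene with 3 exons on chromosome 13 (chr13:48272413-48273884, minus strand, GRCm38), beside Id4, an inhibitor of helix-loop-helix transcription factors. Its normalized counts (counts divided by the size factor of the library) were 333.5, 419.0 and 244.7 in Control mice, compared with 123.3, 105.4 and 138.1 in IDPN mice. Every IDPN library was below every Control library. The log2-Fold_Change was -1.44 (SE 0.27, Padj = 6.71e-06), and with any 1 library left out it stayed between -1.62 and -1.24 and was called. Id4 was at 0.15 (SE 0.23, Padj = 0.830).

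Gm1322 lies on chromosome 2 (chr2:67173834-67184950, plus strand), 228775 bases from the nearest protein-coding gene, Gm21830, which had 0 counts in every library, and is listed as protein-coding by RefSeq. Its normalized counts were 579.7, 612.9 and 588.1 for Control and 372.4, 220.9 and 208.1 for IDPN animals. The Control libraries were close together (593.6 ± 17.2, SD, n = 3), and all IDPN libraries were lower, IDPN 1 the least so. The log2-Fold_Change was -1.15 (SE 0.24, Padj = 1.60e-04).

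5330413P13Rik, also on chromosome 2 (chr2:131820006-131847683, minus strand), is a 4-exon gene whose exons overlap annotated neighbours on both strands and whose nearest protein-coding gene, Erv3, had 0 counts. Its normalized counts were 152.8, 135.0 and 147.7 in the Control libraries, against 63.72, 54.22 and 65.33 in the IDPN libraries. The groups did not overlap and each was tight. The log2-Fold_Change was -1.25 (SE 0.30, Padj = 0.00109). The total-count size factors move all genes up by 0.25 on the log2 scale, and with them 5330413P13Rik (-0.99, Padj = 0.0791) and Gm1322 (-0.87, Padj = 0.0767) no longer passed, while A330048O09Rik did (-1.15, Padj = 0.00506). The HC marker sums given above moved in the same direction as these 3 lincRNAs, as did the sums of 7 supporting cell markers (309500 to 449800 in Control, 214500 to 267000 in IDPN, 1 of 7 called down, none at 0) and of 6 neuron markers (4965 to 5202 in Control, 3101 to 3413 in IDPN, 3 of 5 tested called down, none at 0). The part of these cells in the decreases was not tested.

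The start regions of the called lincRNAs are printed next, because their sequences are where regulation of a changed transcript could be looked up. RefSeq (GRCm38.p6) gave the 250 bases before and 50 after the start for 4 of the 8, at chr13:48273835-48274134 (minus strand) for A330048O09Rik, chr2:67173584-67173883 (plus) for Gm1322, chr7:75782071-75782370 (minus) for AU020206 and chr1:73864417-73864716 (minus) for 6030407O03Rik. Capitals mark matches, on either strand, to an AP-1 site (TGANTCA) or a CCAAT box (CCAAT).
A330048O09Rik promoter: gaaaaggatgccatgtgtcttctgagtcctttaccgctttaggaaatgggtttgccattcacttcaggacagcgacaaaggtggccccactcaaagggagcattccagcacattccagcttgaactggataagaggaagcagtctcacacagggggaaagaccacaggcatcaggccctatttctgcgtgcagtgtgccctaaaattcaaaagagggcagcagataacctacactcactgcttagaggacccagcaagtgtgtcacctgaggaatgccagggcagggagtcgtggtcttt
Gm1322 promoter: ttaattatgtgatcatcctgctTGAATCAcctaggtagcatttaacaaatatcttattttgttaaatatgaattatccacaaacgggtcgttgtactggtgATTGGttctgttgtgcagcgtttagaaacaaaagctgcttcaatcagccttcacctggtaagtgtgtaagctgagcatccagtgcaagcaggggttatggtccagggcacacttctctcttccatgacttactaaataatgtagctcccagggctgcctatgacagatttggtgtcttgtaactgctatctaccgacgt
AU020206 promoter: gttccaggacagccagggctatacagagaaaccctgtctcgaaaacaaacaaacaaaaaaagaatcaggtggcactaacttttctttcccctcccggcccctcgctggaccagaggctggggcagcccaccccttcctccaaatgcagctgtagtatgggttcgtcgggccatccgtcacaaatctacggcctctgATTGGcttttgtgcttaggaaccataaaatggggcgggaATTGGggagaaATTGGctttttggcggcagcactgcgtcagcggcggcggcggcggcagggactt
6030407O03Rik promoter: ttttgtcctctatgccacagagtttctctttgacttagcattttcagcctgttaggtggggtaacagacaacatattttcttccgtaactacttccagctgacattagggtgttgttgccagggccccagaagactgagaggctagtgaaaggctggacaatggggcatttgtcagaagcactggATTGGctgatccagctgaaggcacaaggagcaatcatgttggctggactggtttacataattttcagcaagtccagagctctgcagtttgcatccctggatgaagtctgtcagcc
The A330048O09Rik region held none of the 6 motifs searched, and that of Gm1322 held 1 AP-1 match and 1 CCAAT match. AU020206 held 3 CCAAT matches, in a region with 15 CpG dinucleotides and 55.7% GC. 6030407O03Rik held 1 CCAAT match and 1 CpG. None of the 4 held the interferon element GAAANNGAA, the cyclic AMP element TGACGTCA, the ATF4 and CEBP composite TGATGNAA or the TATA box TATAAA.

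The same search over the 58 lincRNAs with a RefSeq start region found a CCAAT box in 30 (51.7%), against 37.4% of all 32851 such regions in the table. The cyclic AMP element was found in 4 (6.90%, against 1.79%), the interferon element in 5 (8.62%, against 8.56%), AP-1 in 3 (5.17%, against 7.81%), a TATA box in 6 (10.3%, against 13.6%) and the ATF4 and CEBP composite in 0 (against 3.97%). These shares are a description of letters in a fixed window and were not tested. Some RefSeq starts lay far from the GENCODE start of the lincRNA, at 50350 bases for AY036118, 24925 for Gm16499 and 12844 for 1700047M11Rik. Matches in such windows may not belong to the start of the counted transcript. For the 4 regions printed above, the distance was at most 21 bases.

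The largest change among the 93 was that of Gm26809, a 3-exon lincRNA on chromosome 6 (chr6:18844220-18847360, plus strand) that lies 1219 bases from Lsm8, which encodes a subunit of the nuclear U6 RNA-binding ring. Its normalized counts were 117.6, 112.0 and 64.95 in Control mice, compared with 283.0, 495.0 and 291.2 in IDPN mice. Every IDPN library was well above every Control library. The log2-Fold_Change was 1.87 (SE 0.31, Padj = 2.42e-07), and it was the sole lincRNA of the 93 to pass when DESeq2 tested directly against a fold change of 1.5. Its exons overlap Gm20186 on the opposite strand, and 31.9% of its 31-base words recur in genes of other names, so a read from those words has more than 1 possible source. Lsm8 itself was at -0.21 (SE 0.24, Padj = 0.752).

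2700046A07Rik, a 3-exon lincRNA, had normalized counts of 253.5, 399.4 and 298.0 for Control and 744.8, 646.6 and 583.3 for IDPN animals. The lowest IDPN value was well above the highest Control value. The log2-Fold_Change was 1.05 (SE 0.22, Padj = 1.26e-04). Its exons overlap no annotated gene, and it passed in all 6 fits that left out 1 library. Its nearest protein-coding gene, Spink13, was too low for an adjusted p.

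AU020206, on chromosome 7 (chr7:75769038-75782099, minus strand) near Akap13, a gene for an anchoring protein of protein kinase A, had normalized counts of 337.2, 374.0 and 415.5 in the Control libraries, against 574.3, 827.3 and 797.0 in the IDPN libraries. The groups did not overlap. The log2-Fold_Change was 0.96 (SE 0.21, Padj = 2.43e-04), and it too passed with each library left out, whereas Akap13 was at 0.08 (SE 0.18, Padj = 0.895).

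6030407O03Rik spans a long stretch of chromosome 1 (chr1:73618088-73864466, minus strand) with 9 exons, contains the gene of miR-6351 and lies near Tns1, which encodes the focal adhesion protein tensin. Its normalized counts were 99.45, 93.49 and 79.18 in Control mice, compared with 206.1, 161.6 and 162.4 in IDPN mice. Every IDPN library was higher. The log2-Fold_Change was 0.97 (SE 0.28, Padj = 0.0128), but it missed the threshold in edgeR (Padj = 0.0591), without Control 2 (Padj = 0.0518) and without IDPN 1 (Padj = 0.144). Tns1 was at 0.20 (SE 0.17, Padj = 0.623).

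Gm42418 was the 5th upregulated lincRNA and lies inside a ribosomal RNA locus, described with its neighbours below. Its nearest protein-coding gene, Esp38, lies 101732 bases away and had 0 counts in every library. Its normalized counts were 668.3, 798.7 and 626.3 for Control and 971.6, 1029 and 1166 for IDPN animals, which do not overlap. The log2-Fold_Change was 0.60 (SE 0.18, Padj = 0.0198), just over the fold threshold. It was called in 2 of the 6 fits that omitted 1 library and missed the threshold in edgeR (Padj = 0.0548). The interferon-response sums above were higher in every IDPN library, as were these 5 lincRNAs, with 7 of the 8 interferon-response genes called up. Of 5 erythroid markers, DESeq2 called 4 up and edgeR 0, with sums of 16170 to 36640 in Control and 34690 to 49090 in IDPN. The sums of 5 melanocyte markers did not overlap, at 6056 to 14050 in Control and 14340 to 21800 in IDPN, with 0 of 5 called by DESeq2 or edgeR, 3 at an unadjusted p under 0.05 and none at 0 counts. The part of any of these in the increases was not tested.

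**Figure D1:**
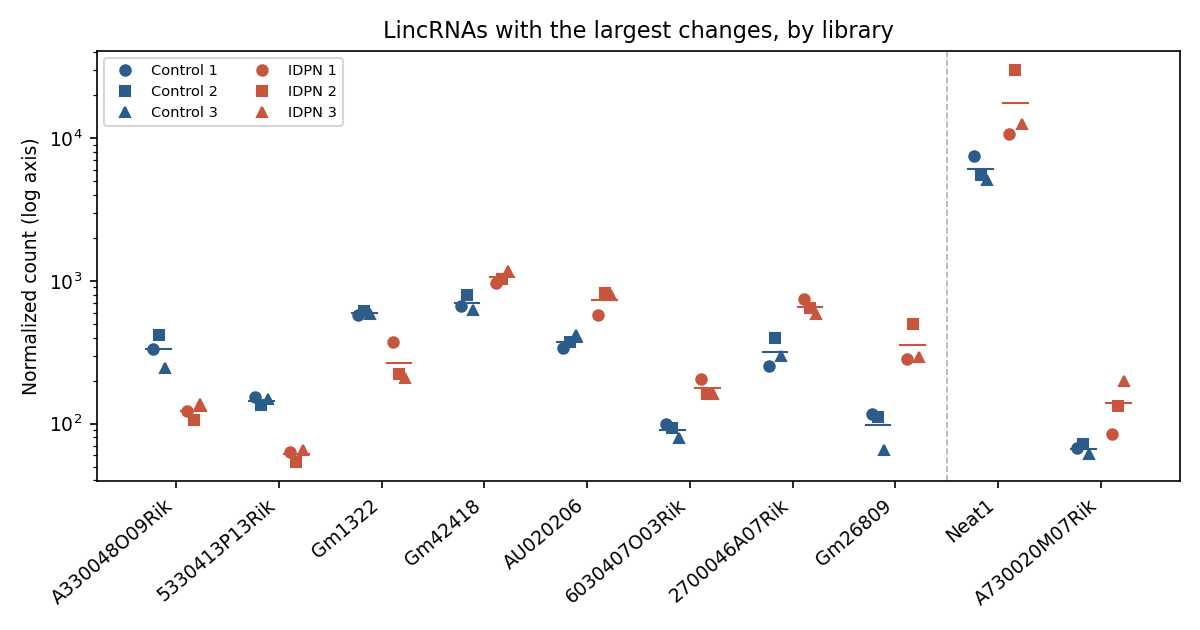
Normalized counts (log axis) of the 8 called lincRNAs, left of the dashed line, and of Neat1 and A730020M07Rik, right of it, with 1 point per library and a bar at the mean of each group (n = 3). For all 10 the Control and IDPN libraries separate, and IDPN 2 is far above the other libraries for Neat1.

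Neat1 and A730020M07Rik came next to the threshold. Neat1 had normalized counts of 7489, 5488 and 5090 in the Control libraries, against 10690, 29810 and 12470 in the IDPN libraries. All IDPN libraries were higher, IDPN 2 by far. The log2-Fold_Change was 1.55 with a wide SE of 0.53 (Padj = 0.0521). It was called without IDPN 2, at a smaller change of 0.94 (Padj = 2.46e-04), as well as without IDPN 1 (1.82, Padj = 6.49e-07) and without IDPN 3 (1.75, Padj = 9.50e-05). It was not called without Control 1 (Padj = 0.117), Control 2 (Padj = 0.274) or Control 3 (Padj = 0.164), and it was called by edgeR (Padj = 0.0474), with total-count size factors (1.76, Padj = 1.69e-07) and with a filter of 10 counts in 3 libraries (Padj = 0.0485). IDPN 2 was also the library with the high stress sum, and the part of that response in its Neat1 level was not tested.

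The proteins that assemble with Neat1 did not pass the test. Of 17 paraspeckle proteins, 0 were called in either direction by DESeq2 or by edgeR and 1, Dazap1, had an unadjusted p under 0.05 in each, with a median log2-Fold_Change of 0.15 against 0.015 over all genes tested. Nono and Sfpq, the core paraspeckle proteins, were at -0.08 (SE 0.15, Padj = 0.866) and 0.43 (SE 0.29, Padj = 0.489). Malat1, the neighbour of Neat1 on chromosome 19, had normalized counts of 76710, 65370 and 55630 in Control mice, compared with 39250, 53620 and 49880 in IDPN mice. Every IDPN library was below every Control library, yet the log2-Fold_Change of -0.47 (SE 0.18) did not pass (Padj = 0.104), and IDPN 2, highest for Neat1, was the highest of the IDPN libraries for Malat1 too.

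A730020M07Rik (chr3:121634936-121643485, minus strand) had normalized counts of 67.92, 71.56 and 61.39 for Control and 84.41, 133.5 and 198.8 for IDPN animals. The IDPN libraries were all higher but spread widely, with IDPN 1 the lowest and IDPN 3 the highest. The log2-Fold_Change was 1.05 (SE 0.36, Padj = 0.0544). It was called with total-count size factors (1.30, Padj = 0.0205), with the filter of 10 counts (Padj = 0.0452) and without IDPN 1 (1.32, Padj = 0.0121), and not without IDPN 3 (0.70, Padj = 0.420). AC121988.1, with a mean normalized count of 1694 ± 310 (SD, n = 3) in Control mice against 1138 ± 118 (SD, n = 3) in IDPN mice, passed on Padj (0.0402) but at -0.57 fell short of the fold threshold.

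The level of the lincRNAs spanned more than 3 orders of magnitude. The mean normalized count was under 200 for 55 of the 93 and above 1000 for 10, with a median of 181.7 against 697.4 for protein-coding genes under the same count rule. The 5 most abundant took 85.8% to 91.3% of all lincRNA counts of the 93, depending on the library. Together the 93 accounted for 0.812% ± 0.113 (SD, n = 3) of the total in Control mice and for 0.833% ± 0.0587 (SD, n = 3) in IDPN, a difference smaller than the spread between animals. Per kilobase of exon the order was AY036118, Gm26825, Malat1, 2900097C17Rik, Tmem250-ps, Gm26917, Gm1322, Neat1, Gm28875 and Gm42418. The ranges over the 6 libraries overlapped between Malat1 and 2900097C17Rik, between Tmem250-ps and Gm26917, and among Gm1322, Neat1, Gm28875 and Gm42418, so the order within each of these sets is not firm.

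**Figure D2:**
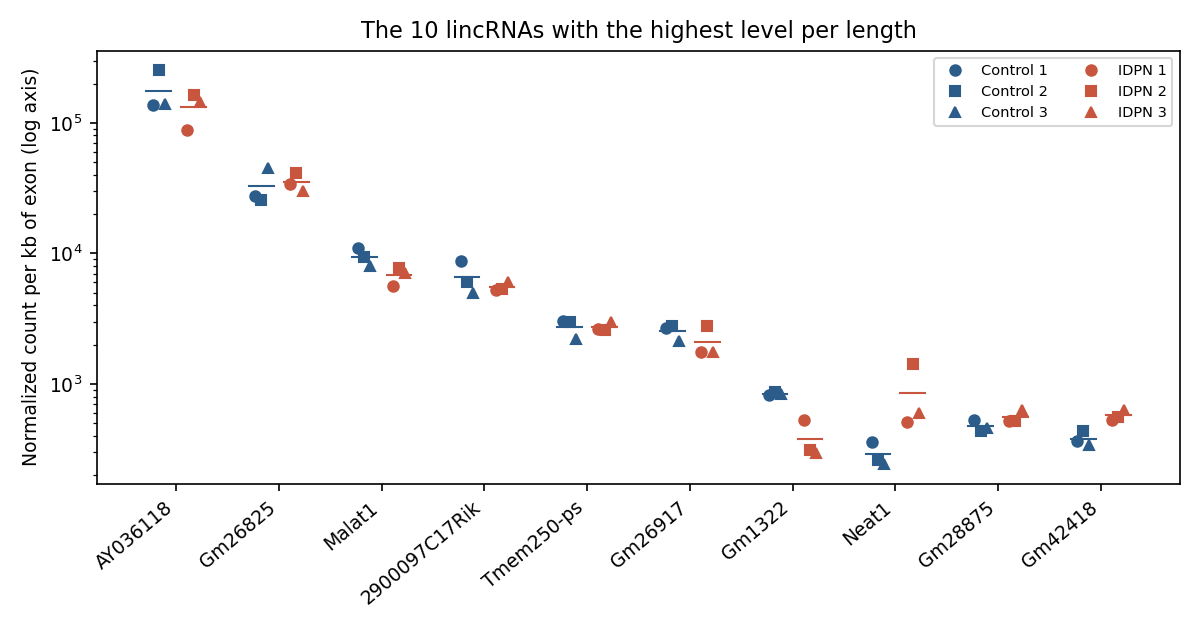
Normalized count per kilobase of exon (log axis) of the 10 lincRNAs with the highest level per length, 1 point per library and a bar at each group mean (n = 3). AY036118 lies far above the rest, and Control and IDPN points interleave for AY036118, Gm26825, 2900097C17Rik, Tmem250-ps, Gm26917 and Gm28875.

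AY036118, Gm26917 and Gm42418 lie together on chromosome 17 (chr17:39843013-39848788) with the ribosomal RNA row CT010467.1, which alone held 994395 to 1526357 counts per library. AY036118 overlaps CT010467.1 on the same strand and Gm42418 overlaps both on the opposite strand, and RefSeq names Gm42418 a pseudogene of 18S ribosomal RNA (Rn18s-rs5). The libraries mark no strand, so reads of these rows cannot be told apart. AY036118 had normalized counts of 125600, 232500 and 129200 in the Control libraries, against 81460, 150900 and 134400 in the IDPN libraries, with overlapping groups and a log2-Fold_Change of -0.41 (SE 0.26, Padj = 0.449). Gm26917 was at -0.27 (SE 0.21, Padj = 0.568) and CT010467.1 at -0.52 (Padj = 0.130), while Gm42418 rose. These 3 lincRNA rows accounted for 0.372% ± 0.117 of the total in Control and 0.333% ± 0.0664 in IDPN (SD, n = 3). Without them, the remaining lincRNAs took 0.441% ± 0.0804 and 0.4996% ± 0.0095.

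Gm26825, second in level, shares most of its sequence with a messenger RNA. Of its 31-base words, 87.0% occur in transcripts of Hspa8, which encodes the constitutive heat shock protein Hsc70, and its exons overlap Gm15459, a processed pseudogene, on the opposite strand. Gm26825 had normalized counts of 55620, 51610 and 91400 in Control mice, compared with 68770, 83080 and 60520 in IDPN mice. Control 3 was the highest and Control 2 the lowest of the 6, and Hspa8 itself had the same highest and lowest library, with 250900 and 144800. The log2-Fold_Change was 0.10 (SE 0.22, Padj = 0.897) for Gm26825, 0.09 (Padj = 0.912) for Hspa8 and 0.10 (Padj = 0.898) for Gm15459.

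The same comparison of 31-base words was made over all annotated transcripts. In it, 75 of the 93 lincRNAs shared under 5% of their sequence with genes not matched by name to those they overlap, and 40 shared none. Sharing was above 50% for 4, Gm26825, AC156572.2 (74.5% with Me1, the cytosolic malic enzyme), AC164123.1 (91.1% with Scp2, a sterol carrier protein) and Gm7292 (85.9% with 2900097C17Rik). RSEM divides reads among such copies, so the counts of these 4 rest on how that split was made. This measure leaves out genes that a lincRNA overlaps, matched by name. An overlapping gene that was renamed or added between annotations was not left out. With those included, sharing was 94.5% to 100% for Gm26694, Gm42418, Gm26733, Gm26735, Gm26751 and AY036118 as well. In libraries that mark no strand their counts rest on such a split too, that of the upregulated Gm42418 (96.3%) included. DESeq2 and edgeR called 0 of the 4, and 0 had an unadjusted p under 0.05.

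2900097C17Rik is the mouse Norad, a cytoplasmic lincRNA known for repeated Pumilio binding elements. Its normalized counts were 42810, 29940 and 24440 for Control and 25670, 26080 and 29900 for IDPN animals, with Control 1 above the rest and the other libraries mixed. The log2-Fold_Change was -0.25 (SE 0.20, 95% interval -0.65 to 0.15, Padj = 0.599). Gm7292, the partial copy on chromosome 6, held 202 to 247 counts per library, against 25939 to 35299 for 2900097C17Rik.

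The element TGTANATA was counted on the transcript strand of the longest GENCODE transcript of each lincRNA, to show what sets 2900097C17Rik and its copy apart in sequence. It occurred 11 times in the 4915 bases of 2900097C17Rik (2.24 per kilobase) and 9 times in the 2527 bases of Gm7292 (3.56 per kilobase), which together made 20 of the 46 elements in all 93 transcripts. No element occurred in 69 of them, and the next highest density was 0.841 per kilobase, from 1 element in Gm28875. A stretch of 2900097C17Rik with 2 elements, in capitals, lies at chr2:156391318-156391467 (minus strand, GRCm38, bases 1513 to 1662 of the transcript).
2900097C17Rik window: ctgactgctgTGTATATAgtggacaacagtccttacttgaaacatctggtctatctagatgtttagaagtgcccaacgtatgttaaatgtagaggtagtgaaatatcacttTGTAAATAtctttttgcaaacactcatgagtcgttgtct

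The other lincRNAs with a described role were not called. Some of their 95% intervals were wide, reaching 0.82 for Miat, 0.91 for Ftx and 1.00 for Meg3. Miat, a nuclear lincRNA of neural tissue, had a log2-Fold_Change of 0.26 (SE 0.28, Padj = 0.731) and Pantr1, transcribed away from the neural transcription factor gene Pou3f3, was at -0.06 (SE 0.19, Padj = 0.933). Ftx, of the X-inactivation centre, was at 0.29 (SE 0.32, Padj = 0.736), and its value in IDPN 1 (322.8) was well above its range in the other libraries (137.6 to 190.4). 1700020I14Rik, listed elsewhere as Oip5os1 or Cyrano and known for its near-perfect miR-7 site, had normalized counts of 989.7, 1056 and 1181 in the Control libraries, against 1106, 939.8 and 1305 in the IDPN libraries, and its log2-Fold_Change of 0.05 had a 95% interval of -0.31 to 0.41. Of the 11 lincRNAs on the role lists, counting Malat1, Neat1 and 2900097C17Rik, DESeq2 called 0 and edgeR called Neat1. At an unadjusted p under 0.05 DESeq2 gave 2, Neat1 and Malat1.

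Meg3, the maternally expressed lincRNA of an imprinted cluster, had normalized counts of 103.1, 72.72 and 124.6 in Control mice, compared with 125.8, 112.5 and 155.9 in IDPN mice. The groups overlapped, and the log2-Fold_Change was 0.39 (SE 0.31, Padj = 0.602). It had the lowest level per length of the 93, at 6.40 normalized counts per kilobase. Of the imprinted noncoding RNAs on the role lists, only Meg3 was among the 93. A further list held 11 tested imprinted protein-coding genes that neighbour imprinted noncoding RNAs of any annotated type. Over all genes tested, DESeq2 called 2.32% up and 3.42% down. On this list Cdkn1c, a cell cycle inhibitor, was called up (0.66, Padj = 0.0476). Trappc9 (-0.81, Padj = 1.19e-04) and Ndn (-0.81, Padj = 3.69e-04) were called down. Each of these calls was lost under an alternative, Cdkn1c in edgeR (Padj = 0.105), and Trappc9 (-0.53, Padj = 0.157) and Ndn (-0.54, Padj = 0.206) with total-count size factors. The genes of the Meg3 cluster itself, Dlk1, Rtl1 and Dio3, were near or at 0 counts and had no adjusted p.

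Small RNA genes lie within 8 of the 93 lincRNAs. 6720427I07Rik contains let-7a-1, let-7d and let-7f-1, C130071C03Rik contains miR-9-2, Ftx contains miR-374b and miR-421, Meg3 contains miR-770 and miR-1906-1, Snhg20 contains miR-6516, 2900076A07Rik contains miR-1839, 6030407O03Rik contains miR-6351, and Snhg18 contains the small nucleolar RNA gene Snord123. The mature microRNAs of the first 2 hosts, which belong to families well known from neural and sensory tissue, are printed from RefSeq with the seed (bases 2 to 8) in capitals. The 3 let-7 members share the seed GAGGUAG, and miR-9 has another.
let-7a-5p: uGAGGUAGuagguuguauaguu
let-7d-5p: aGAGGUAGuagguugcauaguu
let-7f-5p: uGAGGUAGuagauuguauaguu
miR-9-5p: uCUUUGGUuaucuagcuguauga
The host 6720427I07Rik, at chr13:48532905-48546500 (minus strand), had a log2-Fold_Change of 0.22 (SE 0.29, Padj = 0.797), and the miR-9-2 host C130071C03Rik was at -0.02 (SE 0.32, Padj = 0.986). The protocol copied polyadenylated RNA, so mature microRNAs were not measured here.

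The hosts Snhg20 and Snhg18 were at -0.23 (SE 0.28, Padj = 0.780) and -0.07 (SE 0.24, Padj = 0.940). Snhg20 had normalized counts of 508.2, 502.1 and 389.7 for Control and 489.9, 221.9 and 484.3 for IDPN animals. IDPN 2 alone was low. Of the 7 small RNA hosts other than 6030407O03Rik, DESeq2 and edgeR called 0, and 0 had an unadjusted p under 0.05. Of the proteins that process such transcripts, 0 of 13 tested in microRNA processing, 0 of 14 in nonsense-mediated decay and 0 of 16 in the nuclear exosome were called by DESeq2 or edgeR, and 1 of them, Dgcr8 in microRNA processing, had an unadjusted p under 0.05. Of 12 that build small nucleolar ribonucleoproteins, 1 was called down, Nop10 (-0.61, SE 0.16, Padj = 0.00343), a structural subunit of the box H/ACA particle, which was not called with total-count size factors (-0.35, Padj = 0.350).

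The structure of the 93 differed from that of protein-coding genes. Their union of exons had a median length of 2846 bases (447 to 20771, the longest being Neat1), against 4606 for protein-coding genes under the same count rule, and a median GC content of 46.7% against 49.6%. A single exon was annotated in 15 and a transcript of at most 2 exons in 30 more, with a median of 3 exons at most per transcript against 9. In GENCODE M21, 86 kept the type lincRNA, and 7 had since been given another type, among them 6330403K07Rik as protein-coding. Symbols ended in Rik for 41 and began with Gm for 26. Exons of 43 overlapped an exon of another gene, on the opposite strand in 37 and on the same strand in 15. Without those 43, DESeq2 called 3 up and 2 down.

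The protein-coding gene nearest to each lincRNA was mostly close, at a median of 3807 bases, and 20 lincRNAs overlapped it. Of the 75 nearest genes with an adjusted p, 2 (2.67%) were called, Ttc7 and Lpp, both down and neither of them beside a called lincRNA. Over all genes tested, DESeq2 called 2.32% up and 3.42% down. D730003I15Rik was at 0.00 (SE 0.24, Padj = 0.998). Its neighbour Atf3, a stress-induced transcription factor, had normalized counts of 65.5, 38.1 and 69.4 in Control mice, compared with 101.8, 3420 and 142.8 in IDPN mice. Every IDPN library was above every Control library for Atf3, IDPN 2 by far (log2-Fold_Change 4.405, SE 1.408). Its mean normalized count of 639.5 was not low, but it had no adjusted p, because DESeq2 gives none to a gene with an outlying count.

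For 21 lincRNAs the start of a protein-coding gene lay within 1000 bases on the opposite strand. In 16 of these pairs the genes do not overlap, and in 5 (Lppos, Gm16499, Gm6297, B230354K17Rik and Gm4419) they do, so that reads of the shared stretch cannot be told apart in these libraries. DESeq2 and edgeR called 0 of the 21 lincRNAs, of which 3 had an unadjusted p under 0.05. Of their 21 partners, 2 were called, both down, where 3.42% of all genes tested were called down. They are the same 2 genes named above among the nearest genes. Ttc7, which encodes a scaffold of a lipid kinase complex, was at -1.06 (SE 0.16, Padj = 7.89e-09), while 4833418N02Rik, 72 bases away, was at 0.05 (SE 0.32, Padj = 0.965). Lpp, a focal adhesion gene, was at -0.63 (SE 0.20, Padj = 0.0375), and Lppos, 81 bases away, at -0.38 (SE 0.36, Padj = 0.671). In 13 of the 21 pairs both members had the same sign, and Pearson's r of the log2-Fold_Changes was 0.22 (n = 21 pairs from the same 6 libraries).

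**Figure D3:**
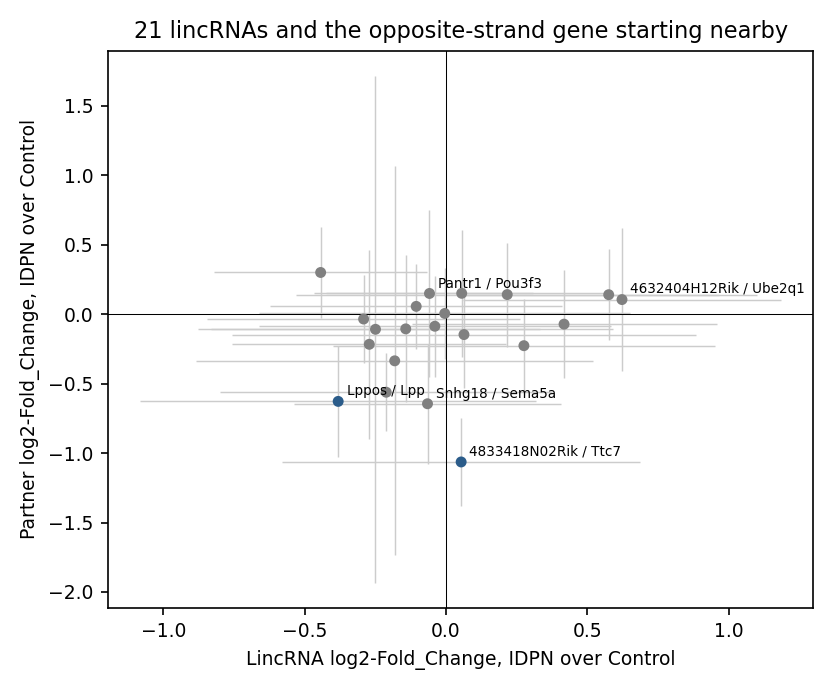
Log2-Fold_Change (IDPN over Control) of 21 lincRNAs on the x axis and of the protein-coding gene starting within 1000 bases on the opposite strand on the y axis, with 95% intervals as lines. Blue points mark the 2 called partners, Ttc7 and Lpp, and most pairs lie close to both zero lines.

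IDPN 2 held the lowest normalized count of the 6 libraries for 44 of the 93 lincRNAs (47.3%), against 18.1% of 11541 protein-coding genes under the same count rule. Its median log2 difference from the Control mean was -0.27 over the lincRNAs and -0.001 over the protein-coding genes. IDPN 1 and IDPN 3 lay the other way, with medians of 0.13 and 0.10 over the lincRNAs, and held the highest value for 23 and 22 of them. Snhg20, Gm13830 (51.21 in IDPN 2, against 78.49 to 187.0) and AC108401.3 (53.21, against 67.92 to 109.2) were examples of low values in IDPN 2.

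The share was similar for lincRNAs with a mean normalized count under 200 (27 of 55, 49.1%) and for the others (17 of 38, 44.7%), and held for 25 of the 50 whose exons overlap no other gene. Protein-coding genes with a mean under 200 had IDPN 2 as the lowest library in 22.4%. Other noncoding types under the same count rule lay between, at 36.1% of 72 processed transcripts, 33.9% of 59 antisense RNAs and 43.8% of 16 transcripts from bidirectional promoters, while processed pseudogenes were at 4.07% of 123. IDPN 2, the library with the high stress sum, was thus the lowest library more often for several noncoding types than for protein-coding genes. The 93 lincRNAs together took 0.869% of its counts, within the 0.682% to 0.885% of the other libraries, so their summed amount was not low. The part of the stress response in this pattern was not tested. Leaving out IDPN 2 moved the median log2-Fold_Change of the 93 from -0.015 to 0.086, and leaving out IDPN 1 or IDPN 3 moved it to -0.113 or -0.105. The numbers called changed little, to 5 up and 4 down without IDPN 2. The median coefficient of variation of the 93 was 15.8% in Control and 19.97% in IDPN, where that of protein-coding genes was 13.6% and 12.6%.

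**Figure D4:**
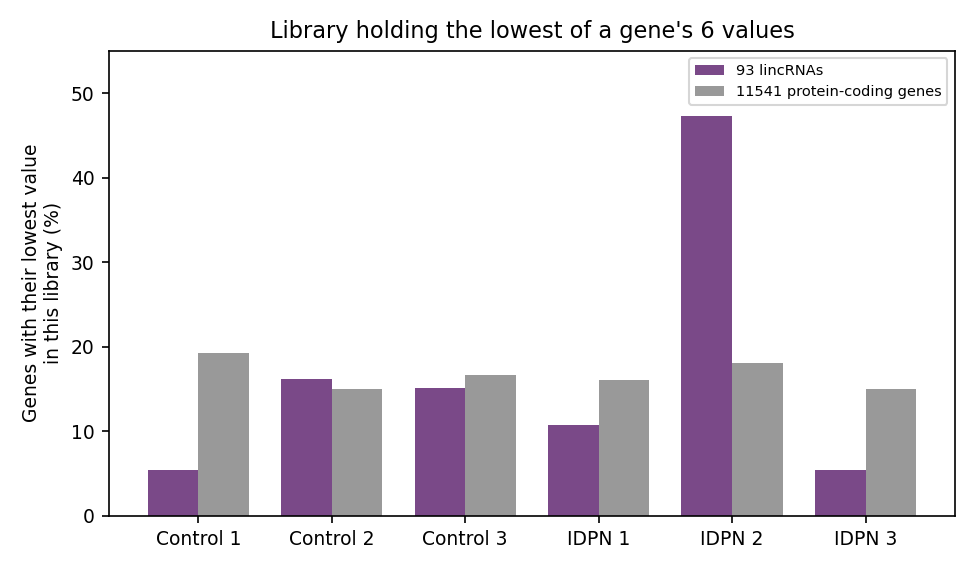
Share of genes whose lowest of 6 normalized counts was in each library, for the 93 lincRNAs and for 11541 protein-coding genes with at least 50 counts in every library. The lincRNA bar stands at 47.3% in IDPN 2, and the protein-coding bars lie between 14.96% and 19.29%.

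Precision limited what could be called. The median SE of the log2-Fold_Change was 0.29 over the lincRNAs and 0.20 over the protein-coding genes. Of the 85 lincRNAs that were not called, 69 had a 95% interval within 1 of 0 on the log2 scale and 16 had one within a fold of 1.5 in either direction. For the other uncalled lincRNAs the interval, with 3 animals in each group, still held changes of more than 1.5-fold. Just inside the count rule were Gm13830 and Lppos, with 51 counts in their lowest library, and AC108401.3 with 53, and just outside it were Dancr and Gm45495 with 49 and Gm26767 with 48. A further 25 lincRNA rows reached 50 counts in every IDPN but not every Control library and 13 the reverse, and the rule left them out.

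**Figure D5:**
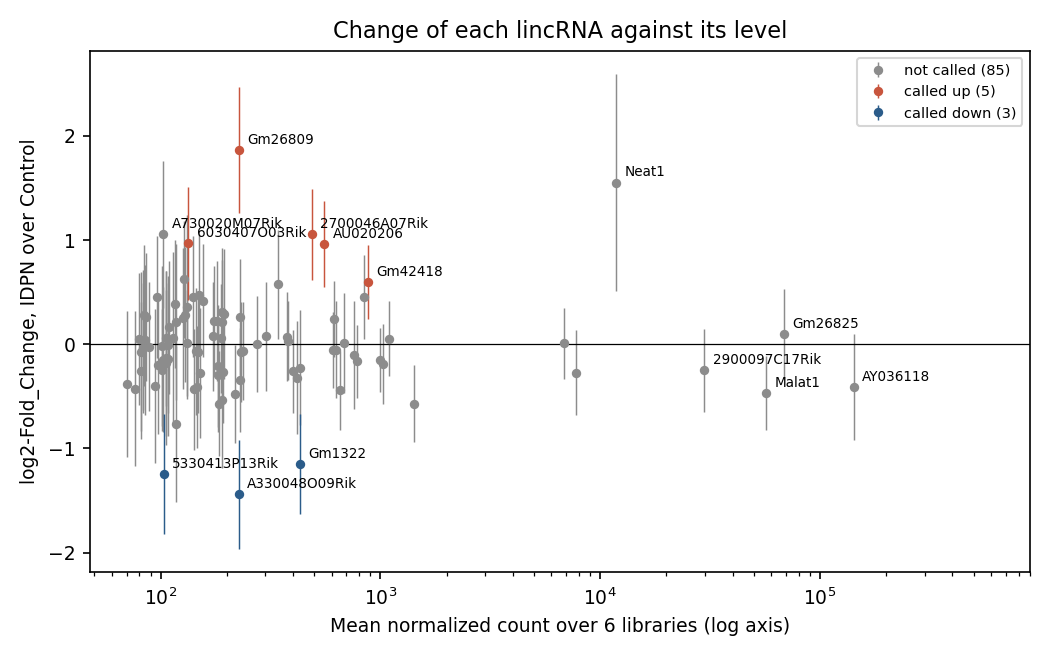
Log2-Fold_Change (IDPN over Control) of each of the 93 lincRNAs against its mean normalized count over 6 libraries (log axis), with 95% intervals as lines. The 5 lincRNAs called up and 3 called down have mean normalized counts between 103.1 and 876.6, and the 11 lincRNAs with a higher mean, Neat1 included, were not called.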

How the data were processed

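Bulk SMART-seq2 libraries (6 to 11 ng of total RNA, oligo-dT priming, 8 and 12 PCR cycles, no molecular identifiers, no strand) from 3 Control and 3 IDPN animals were used, all in a single labelled batch. The authors mapped reads to GRCm38 with STAR 2.5.3a and quantified genes with RSEM on GENCODE M15, and the deposited values are estimated counts (expected counts) in whole numbers, neither normalized nor filtered. Depth was 40474847 to 43566332 counts per library, and p-values set the difference between groups against the spread between these animals within a group.

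All rows were fitted together with DESeq2 1.42.0 (R 4.3.3, Wald test, median-of-ratios size factors), and a gene was called at an adjusted p under 0.05 and a fold change above 1.5. The edgeR 4.0.16 quasi-likelihood test, other size factors, filters, count minimums of 20 and 100, omission of each library and of overlapping members were the alternatives. Leaving out the 3 ribosomal-locus rows was chosen after seeing the data. On simulated counts with 200 genes changed 4-fold, DESeq2 recovered 99% and 37 of its 235 calls were false, and edgeR recovered 95.5% with 12 of 203 false. Gene models came from GENCODE M21 (52489 of 52636 IDs matched), start regions and microRNAs from RefSeq. The members, lists and motifs were chosen with earlier results of these data known. Named were every called member, the 10 with the highest level per length, role-list members, hosts of small RNAs, the 3 members nearest each side of the count minimum and the nearest coding neighbours of called members. A730020M07Rik, AC121988.1, D730003I15Rik, the divergent pairs and the members that share sequence were named after their values were seen.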

Additional observations from a re-analysis of the deposited data

How the results depend on the processing

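No paired analysis was possible because replicate numbers followed accession order and the labels tie no Control animal to an IDPN animal. Depth and 3 animals per group limit the precision of the less abundant lincRNAs. Of the upregulated count of 5, a test against a fold change of 1.5 left 1, a count minimum of 20 gave 9, a minimum of 100 gave 3 and members without exon overlap gave 3. Leaving out each library in turn gave 4 to 6. Of the downregulated count of 3, total-count size factors left 1, the test against the fold change left 0 and a minimum of 20 gave 5, and leaving out each library gave 3 to 4. The minimum of 20 admitted 172 lincRNAs and that of 100 admitted 53. The median log2-Fold_Change was 0.266 with total-count size factors, which raise all genes, and -0.113 to 0.086 with each library left out. Without AY036118 the share of all counts was 0.461% in Control and 0.520% in IDPN, without the 3 ribosomal-locus rows 0.441% and 0.4996%, and of nuclear-encoded counts it was 0.916% in Control and 0.914% in IDPN, the other way round.

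Signs turned for uncalled lincRNAs near 0. With total-count size factors the log2-Fold_Change was 0.037 for 2900097C17Rik, 0.086 for Snhg20, 0.193 for Snhg18, 0.185 for Pantr1 and 0.244 for C130071C03Rik. With each library left out it ran from -0.059 to 0.402 for Gm26825, -0.128 to 0.090 for Tmem250-ps, -0.396 to 0.064 for Snhg20, -0.171 to 0.086 for Snhg18, -0.171 to 0.009 for Pantr1, -0.167 to 0.082 for C130071C03Rik, -0.073 to 0.164 for 1700020I14Rik, -0.129 to 0.527 for Ftx, -0.449 to 0.419 for Gm13830 and -0.160 to 0.290 for AC108401.3. The causes were not tested. The 8 called lincRNAs kept their direction under every alternative run.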

Other observations

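LincRNAs below the count rule were examined as well, and those named here were picked after their values were seen. Of 4989 lincRNA rows outside the rule, 3542 were at 0 in every library and 478 had an adjusted p. DESeq2 called 14 of the 478 up (2.93%, against 2.32% of all genes tested) and 3 down (0.628%, against 3.42%). Of the 14, edgeR tested 13 and called 2, and it called all 3 of those that DESeq2 called down. Tbx3os2, transcribed beside the developmental transcription factor gene Tbx3, had normalized counts of 37.60, 65.79 and 36.48 in Control mice, compared with 141.5, 97.39 and 169.8 in IDPN mice (log2-Fold_Change 1.55, SE 0.37, Padj = 0.00129). Gm7932 had 53.36, 99.26 and 71.17 for Control and 240.0, 185.7 and 163.3 for IDPN animals (1.40, SE 0.32, Padj = 4.78e-04). These are the 2 that edgeR called (adjusted p = 0.0422 and 0.0320). For both, every IDPN library was above every Control library.

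Among the 3 rows called down, Gm14461 had normalized counts of 112.8, 81.95 and 126.3 in the Control libraries, against 49.65, 24.10 and 18.66 in the IDPN libraries (-1.79, SE 0.43, Padj = 0.00136), and Gm1976 had 109.2, 137.4 and 105.0 in Control mice, compared with 46.34, 26.10 and 27.06 in IDPN mice (-1.81, SE 0.38, Padj = 9.22e-05). AC169985.1 had 28, 21 and 41 raw counts in Control and 0 in each IDPN library.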
